A study of Homo sapiens with 24 samples.

Results

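The troponin gene loci are 5 windows of build hg19, 560 kb in all, that hold the 7 genes TNNT1, TNNT2, TNNT3, TNNI1, TNNI2, TNNC1 and TNNC2. They were set by gene and position, not by a cut-off on a measured value, but with earlier results of these data known. Of the 564552 peaks in 14 ChIP-seq peak lists, 415 overlapped a window by at least 1 bp. TNNT2 and TNNI1 shared the window chr1:201300001-201440000, and TNNI2 and TNNT3 shared chr11:1830001-1990000. TNNT1 lay in chr19:55620001-55700000, TNNC1 in chr3:52440001-52530000 and TNNC2 in chr20:44410001-44500000.

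The troponin complex sits on the thin filament of striated muscle and switches contraction on when calcium rises. Troponin T anchors the complex to tropomyosin, troponin I inhibits the actin-myosin interaction, and troponin C binds the calcium. TNNT1, TNNI1 and TNNC1 encode the slow skeletal forms, TNNT3, TNNI2 and TNNC2 the fast skeletal forms, and TNNT2 the cardiac troponin T, which is also made in embryonic skeletal muscle. TNNC1 serves the heart as well as slow muscle. In skeletal muscle these genes are known targets of MYOD, the basic helix-loop-helix factor that drives myogenic differentiation, and they are switched on as myoblasts differentiate.

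All libraries came from RD, an established human line of fusion-negative rhabdomyosarcoma, a tumour of muscle-like cells that stop short of differentiating. The groups were RD cells with TWIST2 knockdown (KD) and control RD cells, each with 2 libraries for H3K27ac (the acetyl mark found on histones at active enhancers and promoters), for MYOD and for SMARCA4 (BRG1, an ATPase of the SWI/SNF chromatin remodellers). Another 2 libraries used a Ty1 antibody in RD cells with 3xTy1-TWIST2 and show where the tagged TWIST2, also a basic helix-loop-helix factor, was bound. The H3K27ac, MYOD and Ty1 libraries are titled RD-1 and the SMARCA4 libraries RD-2, and what sets these names apart is not explained in the labels, so overlaps of SMARCA4 with the others join differently named sets. A TWIST2 region below has a peak in both Ty1 libraries unless 1 library is named. The series addresses how TWIST2 shapes chromatin in this tumour. The labels do not say how TWIST2 was knocked down, how the tagged protein was brought in, what the control cells received, or whether replicates were separate cultures, so a p-value here covers only the spread between these libraries. TWIST2 protein was not measured in the KD libraries, and there is no Ty1 library of untagged cells. The lists hold peak positions and no RNA, so expression of the 7 genes was not measured.

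MYOD and TWIST2 both bind E-boxes, 6-base motifs of the form CANNTG. The RefSeq promoter table of build GRCh38.p14 held 2 of the 7 genes. The 250 bases before the start of each are printed to show the E-box letters near a cardiac and a slow troponin T promoter, with every CANNTG in capitals, 5′ to 3′ on the gene's strand. TNNT2 lies at chr1:201377681-201377930 (minus strand) and TNNT1 at chr19:55149207-55149456 (minus strand), both in GRCh38.p14.
TNNT2: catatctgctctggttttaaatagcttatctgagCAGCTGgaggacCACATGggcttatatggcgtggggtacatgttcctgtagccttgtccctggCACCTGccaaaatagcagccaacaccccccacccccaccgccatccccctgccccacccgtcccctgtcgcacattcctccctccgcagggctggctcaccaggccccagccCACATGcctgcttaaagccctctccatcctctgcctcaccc
TNNT1: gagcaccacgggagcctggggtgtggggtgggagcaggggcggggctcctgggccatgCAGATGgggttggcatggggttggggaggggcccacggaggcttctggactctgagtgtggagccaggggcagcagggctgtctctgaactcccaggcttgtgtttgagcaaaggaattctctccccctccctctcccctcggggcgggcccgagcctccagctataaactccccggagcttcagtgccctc

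The TNNT2 stretch held 4 CANNTG hexamers, CAGCTG at 216 bases before the start, CACATG at 204, CACCTG at 153 and CACATG at 41. CACCTG is CAGGTG read on the other strand. The TNNT1 stretch held 1, CAGATG at 192 bases before the start. Such matches are common. Of 35116 promoters of the same length in the table, 61.8% held a CANNTG on either strand, 13.99% held CAGCTG, 17.5% held CAGGTG and 12.2% held CAGATG, and the general motif includes the 3 specific ones. CATATG, held by 2.63% of promoters, was in neither stretch. Because the peaks are in hg19 and these sequences in GRCh38.p14, the peaks were not placed on them, and no peak below is assigned to a promoter, exon or intron.

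The lists differed in size. H3K27ac lists held 48022 and 46822 peaks in KD libraries, against 36679 and 34932 in control libraries. MYOD lists held 52510 and 48003 peaks in KD libraries, against 44974 and 43381 in control libraries. SMARCA4 lists held 12518 and 14676 peaks in KD libraries, against 11835 and 25013 in control libraries, from 36095336 and 41066933 tags in KD libraries, against 46690705 and 44810601 in control libraries. The share of SMARCA4 tags within peaks was 0.65% and 0.70% in KD libraries, against 0.88% and 1.83% in control libraries, so the second SMARCA4 control library stood apart. The sequencing depth of the other libraries is unknown. No pair of replicate lists shared more than 5 identical peaks.

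Less of the troponin loci was covered by H3K27ac peaks after TWIST2 knockdown than in control cells. The 5 windows together held 74153 and 73559 covered bp in KD libraries, against 90703 and 89076 bp in control libraries. The mean was 73856 ± 420 bp in KD and 89889.5 ± 1150.5 bp in control (SD, n = 2 each), a KD to control ratio of 0.822. Both KD libraries lay below both control libraries, and the exact two-sided permutation test gave p = 0.333, the smallest that 2 against 2 libraries allow. The number of H3K27ac peaks in the windows was 27 and 26 in KD libraries, against 33 and 31 in control libraries (p = 0.333, exact permutation test). This difference of -5.5 peaks turned to 1 when only the wider 0.5 of each list was used. In these bulk libraries, fewer cells with the mark and a lower level of it per cell cannot be told apart. Neither can be told from a difference in depth or peak calling, as the H3K27ac lists hold positions only.

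**Figure D1:**
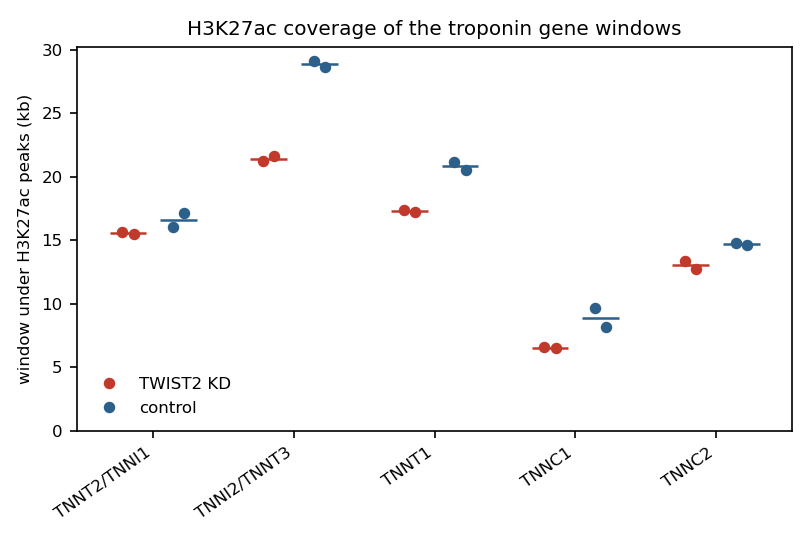
Bases under H3K27ac peaks (kb) in each of the 5 troponin windows, with 1 point per library, KD left of control, and a bar at the mean of 2. In every window both KD points lie below both control points, and the gap is widest at TNNI2/TNNT3.

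That direction was the opposite of the direction over the whole genome. The H3K27ac lists covered 107.7 and 105.0 Mb in KD libraries, against 85.52 and 81.62 Mb in control libraries, a ratio of 1.273. The windows accordingly held 0.0689% and 0.0701% of all H3K27ac-covered bases in KD libraries, against 0.106% and 0.109% in control libraries, a ratio of 0.645 (p = 0.333, exact permutation test). This share was added as a measure after the data had been seen.

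Coverage was lower in KD in each window, by unequal amounts. TNNI2/TNNT3, the fast troponin I and T genes, had 21233 and 21625 covered bp in KD libraries, against 29081 and 28619 bp in control libraries, a ratio of 0.743. TNNC1 had 6573 and 6481 bp in KD libraries, against 9619 and 8179 bp in control libraries, a ratio of 0.734. TNNT1 had 17363 and 17249 bp in KD libraries, against 21146 and 20503 bp in control libraries, a ratio of 0.831. These 3 windows had the lowest ratios, and their groups did not overlap. TNNC2 had 13366 and 12745 bp in KD libraries, against 14797 and 14618 bp in control libraries, a ratio of 0.888. TNNT2/TNNI1, with the cardiac troponin T and slow troponin I genes, had 15618 and 15459 bp in KD libraries, against 16060 and 17157 bp in control libraries, a ratio of 0.936. For this window the gap between the groups was smaller than the gap between its 2 control libraries. Each window alone gave p = 0.333 in the exact permutation test.

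The flanks of the windows, 1 Mb on each side, did not all behave alike. Around TNNC2 the flanks had 95.75 and 98.41 kb under H3K27ac in KD libraries, against 83.25 and 73.78 kb in control libraries, a ratio of 1.237, while the window itself had less in KD. At TNNI2/TNNT3, TNNT1 and TNNC1 the flanks had KD to control ratios of 0.943, 0.976 and 0.939, nearer to 1 than in the windows. At TNNT2/TNNI1 the flanks had 119.2 and 110.5 kb in KD libraries, against 153.3 and 136.1 kb in control libraries, and their ratio of 0.794 was below that of the window. In the flanks of TNNT2/TNNI1, TNNI2/TNNT3, TNNT1 and TNNC1 both KD libraries lay below both control libraries. Lower H3K27ac coverage in KD was thus found around every window but TNNC2, as well as in the windows. The chromosomes also differed, with ratios of 1.22 on chromosome 1, 1.4 on chromosome 3, 1.177 on chromosome 11, 1.121 on chromosome 20 and 0.969 on chromosome 19, which carries TNNT1.

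Overlapping peaks of the 4 H3K27ac libraries were merged into regions, of which 33 touched the windows. None was KD-only (called in each KD library but in no control library), against a background of 19.8% of all 55905 merged H3K27ac regions. Control-only regions numbered 4 (12.1%), against 4.21% of all regions, and 7 without the second control library. Another 24 (72.7%) had a peak in all 4 libraries, called shared below, against 49.1% of all regions, and 5 had some other combination. Most H3K27ac regions at the troponin loci were thus present in both groups.

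Of the 24 shared H3K27ac regions, 7 were wider in both KD libraries than in both control libraries, against a background of 45.4% over 27442 shared regions. Width is the summed length of a library's peaks in a region, so a gap between peaks is not counted. Narrower regions numbered 11, against a background of 29.8%, and the groups overlapped in 6. The median KD to control width ratio was 0.946 at the troponin loci and 1.051 over all shared regions. Width itself went with this direction across the genome. Among the 2734 shared regions of at least 5000 bp in control, 49.7% were narrower in KD, with a median ratio of 0.954, and of the 5 such regions at the troponin loci 4 were narrower, with a median ratio of 0.769. Of the 13 regions of 2000 to 5000 bp at the loci, 30.8% were narrower, against 34.9% over the genome. Their median ratios were 0.959 and 1.017. Of the 6 below 2000 bp, 50% were narrower, against 19.9%, with median ratios of 0.827 and 1.16. The part of region width in the direction at these loci was not tested.

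**Figure D2:**
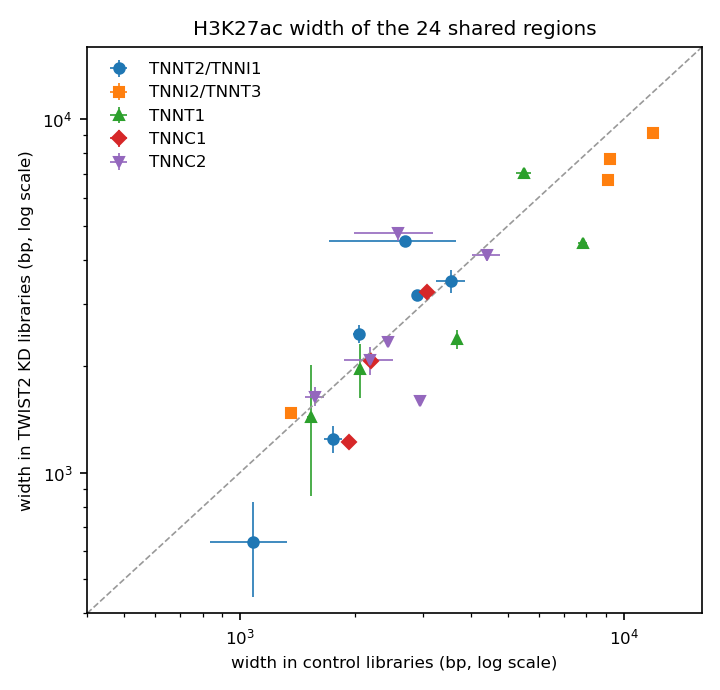
Mean width of each of the 24 shared H3K27ac regions in KD libraries (vertical axis, bp, log scale) against control libraries (horizontal axis, bp, log scale), with bars of 1 SD (n = 2 each) and a dashed line of equal width. Colour and marker give the window. The 3 widest TNNI2/TNNT3 regions lie below the line, and the TNNT1 regions lie on both sides of it.

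The fast troponin window, TNNI2/TNNT3, had most of its H3K27ac in 3 broad regions, all narrower in both KD libraries. In the GRCh38 gene order LSP1 and PRR33 lie between TNNI2 and TNNT3, and MRPL23 comes after TNNT3. These regions thus cannot be assigned to the troponin genes. The broadest, chr11:1967418-1979443, was the only region at the loci of at least 10000 bp. Its peaks summed to 9056 and 9226 bp in KD libraries, against 12026 and 11760 bp in control libraries, a ratio of 0.769. It was 1 peak in each control library and 2 peaks in each KD library, and so was chr11:1895538-1904827, with 7702 and 7693 bp in KD libraries, against 9112 and 9285 bp in control libraries. Both thus had less summed peak length and more pieces in KD. These sums leave out the gap between the 2 KD peaks, and with the gap included the difference was smaller. The broadest then ran over 1967794-1978552 and 1967821-1978356 in KD libraries, against 1967418-1979443 and 1967471-1979230 in control libraries. The other ran over 1895909-1904569 and 1896029-1904442 in KD libraries, against 1895716-1904827 and 1895538-1904822 in control libraries. Such splitting, without regard to width, was seen in 1.77% of shared regions in the genome. The third, chr11:1985023-1994377, runs past the window's end and spanned 6610 and 6824 bp in KD libraries, against 9169 and 9070 bp in control libraries, a ratio of 0.737. By contrast, chr11:1942252-1943739 was slightly wider, with 1488 and 1463 bp in KD libraries, against 1388 and 1326 bp in control libraries. The 2 control-only regions were short. chr11:1859082-1860043 held 910 and 769 bp and chr11:1964771-1965623 held 853 and 501 bp in control libraries, with no KD peak at either.

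Each of the 3 broad regions of the TNNI2/TNNT3 window held MYOD in all 4 libraries. TNNI2/TNNT3 had 10 and 10 MYOD peaks in KD libraries, against 9 and 9 in control libraries, the 1 window with more MYOD peaks in both KD libraries (p = 0.333, exact permutation test). Of 14 merged MYOD regions, 6 were in all 4 libraries. Meetings of MYOD in 4 libraries, tagged TWIST2 in both Ty1 libraries and H3K27ac in 4 libraries stood at chr11:1903012-1903313 and chr11:1975266-1975502, inside the 2 split domains. Their MYOD centres lay 88 and 19.75 bp from the nearest TWIST2 centre. A further site, chr11:1848500-1848769, had MYOD in 4 libraries and TWIST2 24 bp away but H3K27ac in no library. The KD-only MYOD regions chr11:1942833-1943113 and chr11:1974025-1974276 both lay within shared H3K27ac regions and had no TWIST2 region found in both Ty1 libraries, though the second Ty1 library had a peak on the first of them.

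SMARCA4 peaks at TNNI2/TNNT3 were fewer in KD, with 2 and 4 in KD libraries, against 6 and 7 in control libraries. The groups did not overlap (p = 0.333, exact permutation test). All 4 control-only SMARCA4 regions of the window stood at MYOD regions found in 4 libraries. The share of control-only SMARCA4 regions at such MYOD regions was not counted over the genome. Of all SMARCA4 regions in the troponin windows, 26 of 38 (68.4%) overlapped MYOD in any library, against 67.6% over the genome. The 4 control-only regions were chr11:1848551-1848745, chr11:1896858-1897052, chr11:1903083-1903291 and chr11:1988981-1989186. The last had the authors' peak scores 68 and 74, in the top 2.89% and 1.37% of the control lists, and lay in the narrower H3K27ac region at the window's end. Beside chr11:1903083-1903291 the first KD library had a peak at chr11:1903855-1903995, which does not overlap it. Another SMARCA4 region, chr11:1884808-1885051, had peaks in the second KD library and both control libraries and overlapped TWIST2 in both Ty1 libraries, with neither MYOD nor H3K27ac there in any library.

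**Figure D3:**
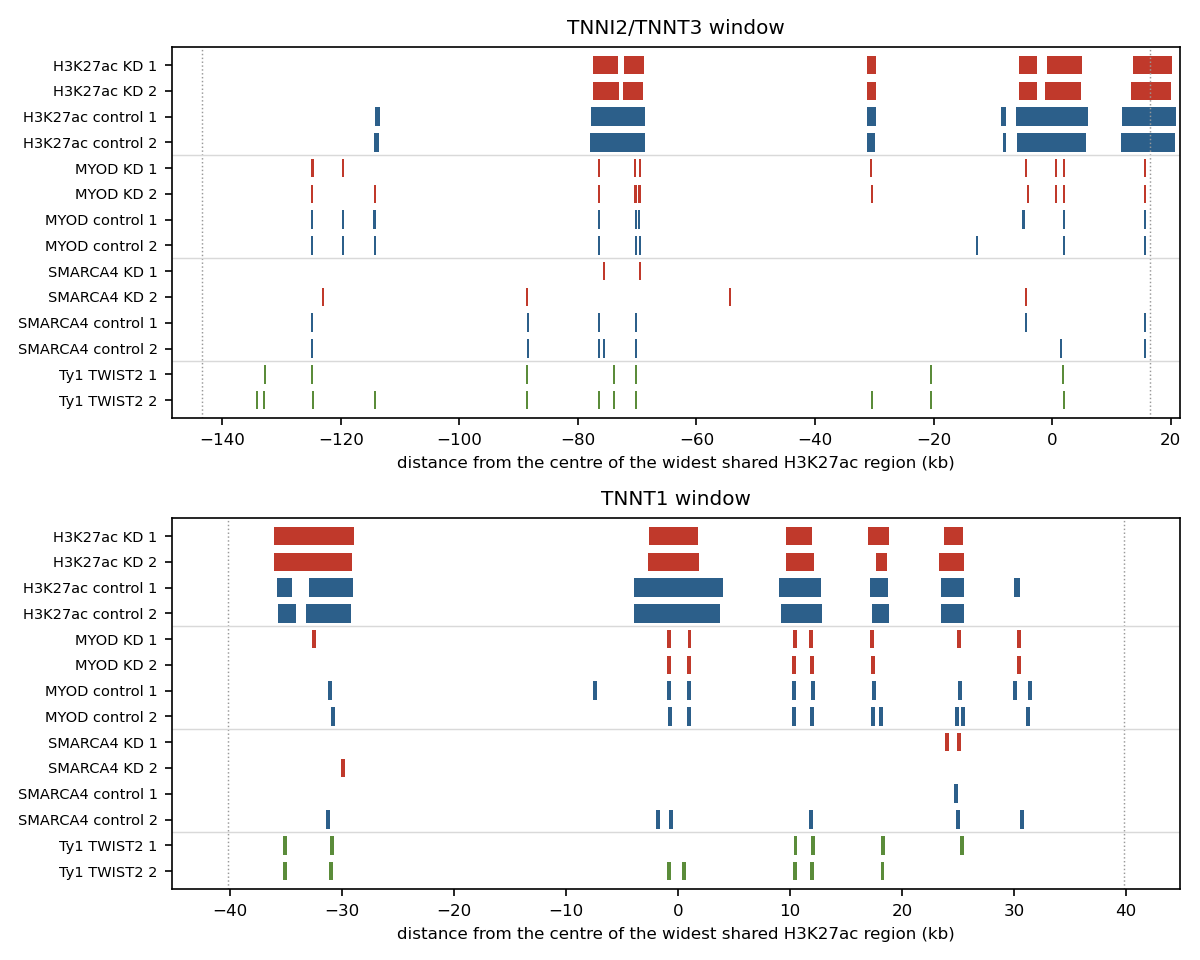
Peaks of each library in the TNNI2/TNNT3 window (top) and the TNNT1 window (bottom), as distance in kb from the centre of the widest shared H3K27ac region. Each row is 1 library, KD above control, dotted lines mark the window ends, and only peaks that overlap the window are drawn. At TNNI2/TNNT3 the H3K27ac domain at 0 kb and the one farther left of it are 1 block in control and 2 in KD.

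At TNNT1, the slow troponin T gene, H3K27ac regions differed in both directions. In the GRCh38 gene order TNNT1 lies next to TNNI3, the cardiac troponin I gene, so the peaks of this window cannot be assigned to 1 of them. The region chr19:55656201-55664172 spanned 4344 and 4572 bp in KD libraries, against 7972 and 7653 bp in control libraries, a ratio of 0.571. Its neighbour chr19:55669204-55673039 spanned 2285 and 2491 bp in KD libraries, against 3726 and 3651 bp in control libraries, a ratio of 0.647. Both held MYOD in all 4 libraries. The first held MYOD at chr19:55659277-55659520 and chr19:55661007-55661306 and no TWIST2 region found in both Ty1 libraries. The second Ty1 library alone had a peak 0.25 bp, centre to centre, from the first of these MYOD sites. The region chr19:55669204-55673039 held MYOD with TWIST2 at chr19:55670382-55670698 and chr19:55671918-55672340, with centres 113.8 and 59.25 bp from TWIST2.

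The opposite difference at TNNT1 was at chr19:55624080-55631239, with 7160 and 6948 bp in KD libraries, against 5316 and 5658 bp in control libraries, a ratio of 1.29. It was 1 peak in each KD library and 2 in each control library, a fusion seen in 1.23% of shared regions in the genome. The summed lengths leave out the gap between the 2 control peaks, and with the gap included the groups were closer. The control peaks then ran over 55624328-55631139 and 55624457-55630991, against 55624080-55631239 and 55624117-55631064 in KD libraries. The region held 2 TWIST2 regions, chr19:55624944-55625184 and chr19:55629023-55629383, and no MYOD region found in all 4 libraries. The remaining shared regions, chr19:55677171-55679037 and chr19:55683523-55685731, had overlapping widths in the groups.

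TNNT1 had 8 and 6 MYOD peaks in KD libraries, against 10 and 10 in control libraries, with no overlap of the groups. All 5 shared MYOD regions lay in shared H3K27ac regions. Over the 5 windows this held for 20 of 25 shared MYOD regions (80%), against 72.0% of 17971 over the genome. The KD-only MYOD region chr19:55690487-55690717 has control peaks on either side of it in the map of the window. SMARCA4 had 2 and 1 peaks in KD libraries, against 1 and 6 in control libraries, so the difference of the means rests on the second control library. At chr19:55684927-55685304 the first KD library and both control libraries had a SMARCA4 peak.

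TNNT2/TNNI1 also had H3K27ac differences in both directions. LAD1 lies between the 2 troponin genes in the GRCh38 gene order. A control-only region at chr1:201364662-201367045 spanned 2360 and 2314 bp in control libraries and was absent from both KD lists. It was the longest of the 4 control-only H3K27ac regions. Within it MYOD had a peak in all 4 libraries at chr1:201365124-201365385, and TWIST2 was in both Ty1 libraries at chr1:201366227-201366608. The first SMARCA4 control library also had a peak there, at chr1:201366401-201366595. Here H3K27ac was called in control cells alone while MYOD was called in both groups.

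The widest shared region of the TNNT2/TNNI1 window, chr1:201387883-201392478, was wider in KD. Its peaks summed to 4425 and 4596 bp in KD libraries, against 1993 and 3378 bp in control libraries, a ratio of 1.68. It was 1 peak in each KD library and 2 in each control library, and the sums leave out the gap between the 2. With the gap included the difference was smaller. The KD peaks ran over 201388040-201392464 and 201387883-201392478, and the control peaks with their gap over 201388241-201391074 and 201388243-201392245. The region held MYOD in all 4 libraries at chr1:201388847-201389080 and chr1:201391528-201391866 and no peak of either Ty1 library. The nearest centre of a peak in either Ty1 library was 11457 bp from the first MYOD site and 13922 bp from the other. A SMARCA4 region at chr1:201388821-201389062 had peaks in the second KD library and both control libraries. Also wider were chr1:201344673-201347947, with 3210 and 3162 bp in KD libraries against 2886 and 2910 bp in control libraries, and chr1:201429389-201432271, with 2371 and 2578 bp in KD libraries against 2102 and 1995 bp in control libraries. Narrower regions were chr1:201419734-201420990, with 771 and 501 bp in KD libraries against 1257 and 909 bp in control libraries, and chr1:201437186-201438999, with 1170 and 1323 bp in KD libraries against 1682 and 1814 bp in control libraries. The window thus had 3 wider and 2 narrower regions, and its total H3K27ac coverage had the ratio nearest to 1 of the 5.

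MYOD at TNNT2/TNNI1 numbered 12 and 13 peaks in KD libraries, against 13 and 14 in control libraries, and the groups overlapped. MYOD, TWIST2 and H3K27ac met in all their libraries at chr1:201353113-201353434 and chr1:201431106-201431330. At the last the MYOD and TWIST2 centres were 6.5 bp apart, the closest of the 25 shared MYOD regions to a TWIST2 region found in both Ty1 libraries. The KD-only MYOD region chr1:201340976-201341217 had H3K27ac in no library. SMARCA4 had 4 and 2 peaks in KD libraries, against 3 and 5 in control libraries, and none of its 10 regions was KD-only, control-only or in all 4 libraries.

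TNNC1, the troponin C of slow muscle and heart, had the lowest mean number of H3K27ac peaks in each group, with 3 and 3 in KD libraries, against 6 and 4 in control libraries. SEMA3G and NISCH flank it in the GRCh38 gene order and may own some of these peaks. The region chr3:52453509-52455445 spanned 1255 and 1187 bp in KD libraries, against 1931 and 1913 bp in control libraries, a ratio of 0.635, and overlapped TWIST2 at chr3:52454483-52454785. The widest, chr3:52443055-52446354, was slightly wider in KD, with 3300 and 3183 bp in KD libraries against 3071 and 3073 bp in control libraries. It held the control-only SMARCA4 region chr3:52444656-52444868.

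A site at TNNC1 had both MYOD and H3K27ac in control cells alone. The H3K27ac region chr3:52470095-52471864 spanned 1664 and 982 bp in control libraries, with no peak in KD libraries. Within it lay chr3:52470727-52470928, the 1 control-only MYOD region at all the troponin loci. TWIST2 was bound there in both Ty1 libraries, at chr3:52470686-52471127. Of the 4 control-only H3K27ac regions this was the 1 with a control-only MYOD region. MYOD was in all 4 libraries elsewhere in the window, at chr3:52484026-52484407, which had TWIST2 19 bp away and H3K27ac in no library, and at chr3:52486620-52486955. TNNC1 had 6 and 3 MYOD peaks in KD libraries, against 5 and 7 in control libraries. SMARCA4 had 0 and 1 peaks in KD libraries, against 1 and 2 in control libraries. Both pairs of groups overlapped.

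TNNC2, the fast troponin C gene, had the highest share of MYOD regions found in every library of the 5 windows. UBE2C and SNX21 flank it in the GRCh38 gene order and may own some of these regions. MYOD had 6 and 7 peaks in KD libraries, against 7 and 7 in control libraries, and 6 of its 7 merged regions were in all 4 libraries. None of the 6 overlapped a TWIST2 region found in both Ty1 libraries, and the nearest was 2187 bp from the centre of one. The second Ty1 library alone had peaks on chr20:44420375-44420660, chr20:44451522-44451750 and chr20:44462311-44462724. H3K27ac at chr20:44439981-44443149, around the MYOD region chr20:44441122-44441447, spanned 1571 and 1610 bp in KD libraries, against 2981 and 2903 bp in control libraries. Its ratio of 0.541 was the lowest of the 24 shared regions. Another region, chr20:44461314-44463778, was narrower by little, with 2344 and 2336 bp in KD libraries against 2413 and 2465 bp in control libraries, and chr20:44453880-44458805, the widest inside the window, had overlapping widths.

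The highest ratio, 1.84, was at the edge of the TNNC2 window, where chr20:44406040-44410941 spanned 4902 and 4598 bp in KD libraries, against 3009 and 2163 bp in control libraries. Its control peaks ended before the window began, so they are not among the 415 peaks. A TWIST2 region found in both Ty1 libraries, chr20:44410240-44410541, lay in the added stretch, with no MYOD peak. SMARCA4 had 1 and 2 peaks in KD libraries, against 1 and 3 in control libraries.

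**Figure D4:**
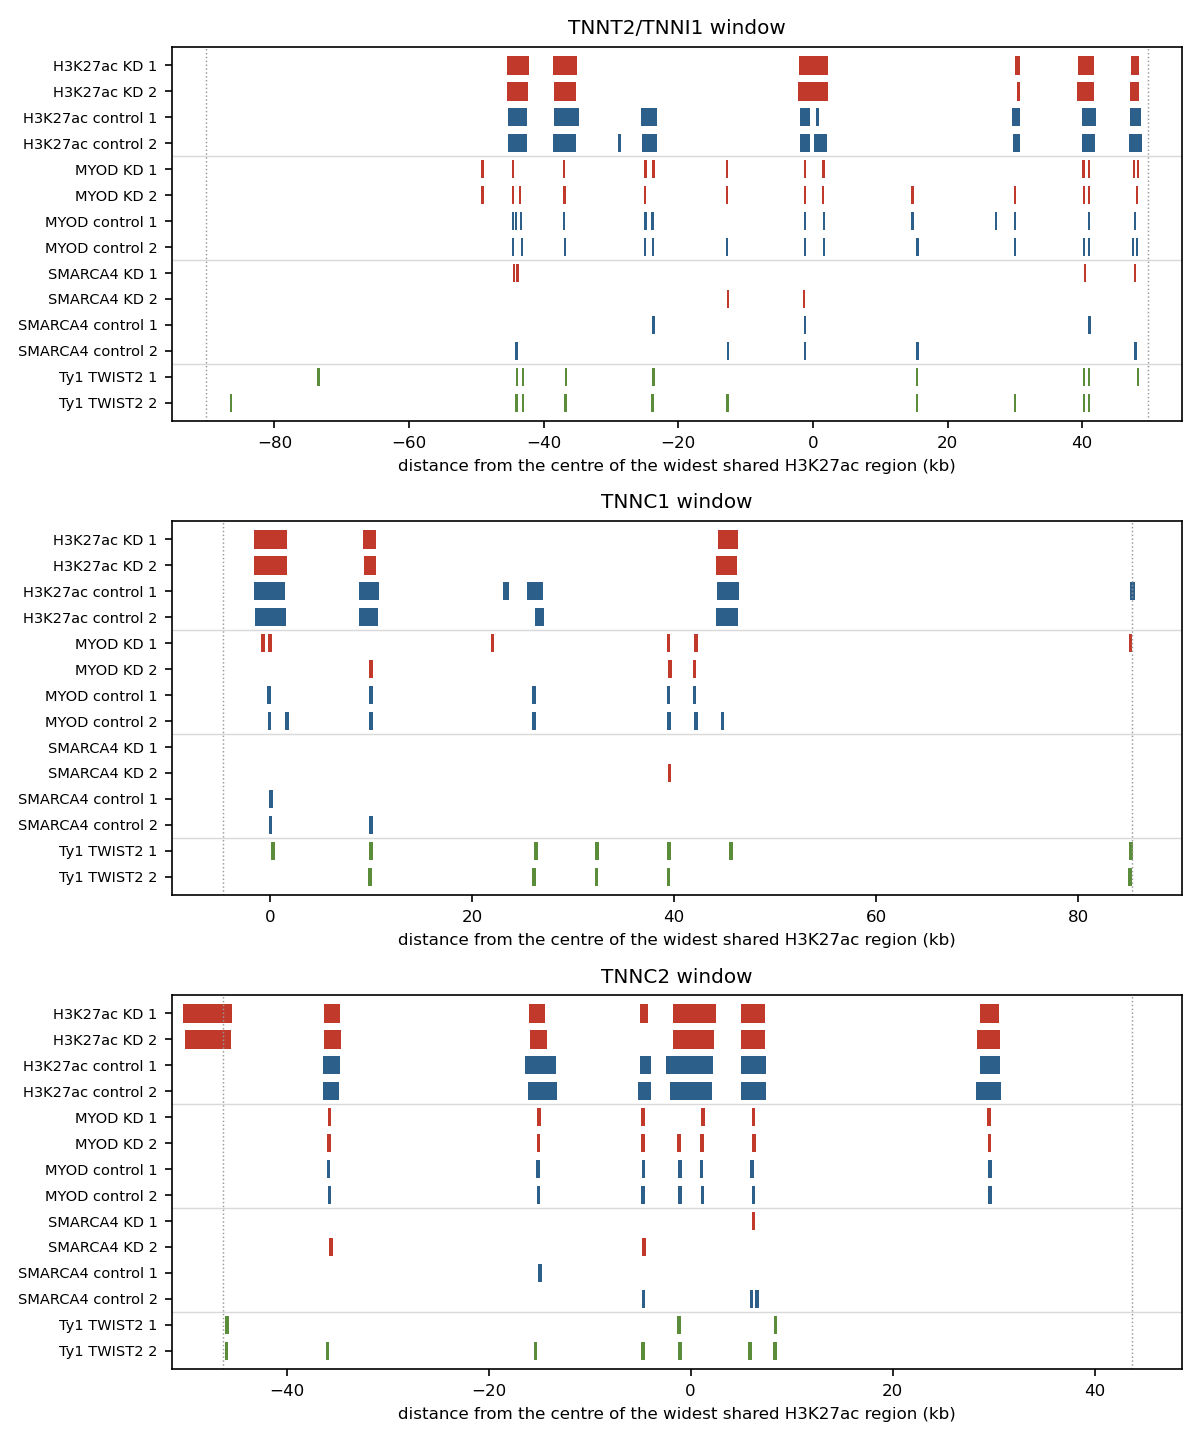
Peaks of each library in the TNNT2/TNNI1 (top), TNNC1 (middle) and TNNC2 (bottom) windows, drawn as distance in kb from the centre of the widest shared H3K27ac region, KD rows above control rows, dotted lines at the window ends. Only peaks that overlap a window are drawn, so control peaks just outside the TNNC2 window do not appear. The control-only H3K27ac regions at TNNT2/TNNI1, left of 0 kb, and at TNNC1, between the 2 rightmost shared regions, have no KD block above them.

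Over the 5 windows, MYOD had 42 and 39 peaks in KD libraries, against 44 and 47 in control libraries, a mean of 40.5 ± 2.12 in KD and 45.5 ± 2.12 in control (SD, n = 2 each; p = 0.333, exact permutation test). Of 68 merged MYOD regions, 4 (5.88%) were KD-only, against a background of 9.1% of 88541 regions. Another 1 (1.47%) was control-only, against a background of 5.41%. MYOD was in all 4 libraries at 25 (36.8%), against 20.3% of all MYOD regions. Without the second KD library 10 regions were KD-only, and leaving out any 1 library gave 4 to 11 control-only regions. Neither class of MYOD regions at the troponin loci stood above its share in the genome. MYOD peaks were called at 213 and 225 bp in KD libraries, against 159 and 179 bp in control libraries, and the part of this in the classes was not tested.

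**Figure D5:**
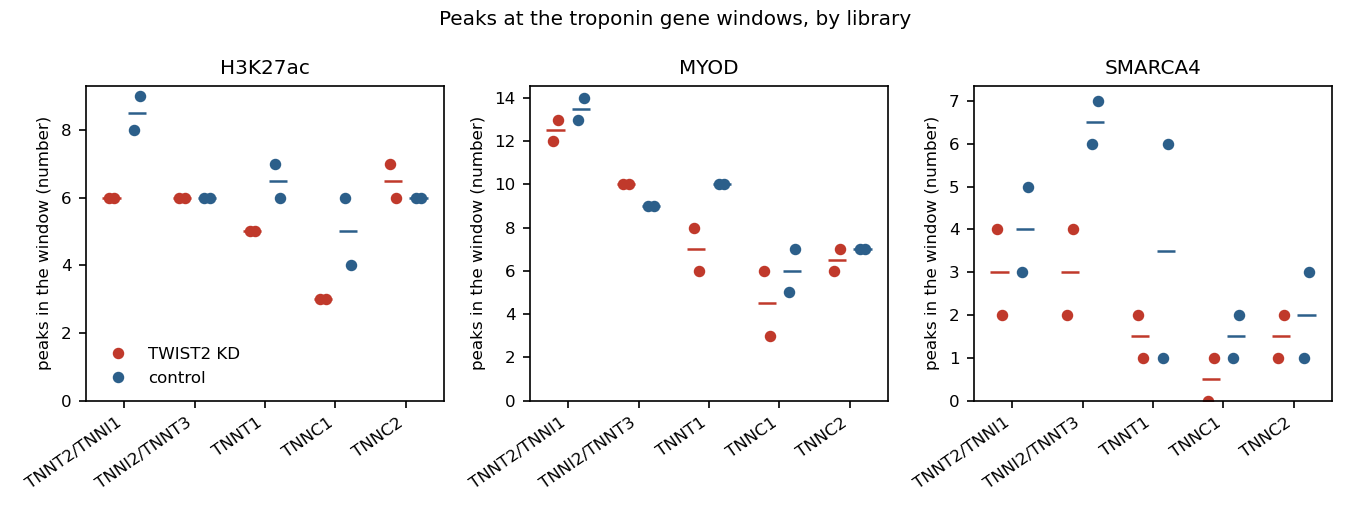
Number of H3K27ac, MYOD and SMARCA4 peaks in each troponin window, with 1 point per library, KD left of control, and a bar at the mean of 2. For H3K27ac the KD points lie below the control points at TNNT2/TNNI1, TNNT1 and TNNC1, for MYOD the order is turned round at TNNI2/TNNT3, and for SMARCA4 the groups are apart at TNNI2/TNNT3.

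SMARCA4 over the 5 windows had 9 and 10 peaks in KD libraries, against 12 and 23 in control libraries, a mean of 9.5 ± 0.707 in KD and 17.5 ± 7.78 in control (SD, n = 2 each; p = 0.333, exact permutation test). The difference of -8 peaks was -2.5 without the second control library and -13.5 without the first. Of 38 merged SMARCA4 regions none was KD-only, against a background of 1.91% of 48009 regions, and 5 (13.2%) were control-only, against a background of 6.68%. None was in all 4 libraries, which held for 1.11% of all SMARCA4 regions. As a share of each list, the windows took 0.0719% and 0.0681% of peaks in KD libraries, against 0.101% and 0.0920% in control libraries. The control libraries also had more tags. SMARCA4 peak sizes were 140 and 145 bp in KD libraries, against 194 and 159 bp in control libraries. Fragment lengths were 140 and 144 bp in KD libraries, against 82 and 132 bp in control libraries. The part of depth, peak size and fragment length in these differences was not tested. Without the first control library 16 regions were control-only, and without the second 9, since a peak in 1 control library was then enough. Without the first or the second KD library, 5 or 6 regions were KD-only by the same relaxation.

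TWIST2 itself had 32 and 40 peaks in the windows in the Ty1 libraries, forming 45 regions of which 27 were in both libraries. Over the genome 50.3% of 96594 merged Ty1 regions were in both. The 27 were spread as 7 at TNNT2/TNNI1, 7 at TNNI2/TNNT3, 5 at TNNT1, 5 at TNNC1 and 3 at TNNC2, so no troponin locus lacked one. How often windows of such sizes elsewhere hold one was not counted. Of the 27 regions, 19 (70.4%) overlapped H3K27ac in at least 1 library, against 50.3% of 48591 TWIST2 regions in the genome. MYOD in at least 1 library was also met by 19 (70.4%), against 48.1%.

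Shared H3K27ac regions at the troponin loci often held MYOD. MYOD in all 4 libraries overlapped 16 of the 24 (66.7%), against 44.1% over the genome, and MYOD in any library overlapped all 24, against 94.2%. Of the 24, 5 were at least 5000 bp wide in control, against 2734 of 27442 over the genome. The part of region width in these overlaps was not tested. TWIST2 in both Ty1 libraries overlapped 11 (45.8%), against 52.0%, whereas TWIST2 in at least 1 Ty1 library overlapped 21 (87.5%), against 76.9%, so the order depends on which is counted. SMARCA4 in any library overlapped 17 (70.8%), against 68.4%. Seen from MYOD, 8 of the 25 shared MYOD regions (32%) overlapped TWIST2 found in both Ty1 libraries, against 46.6% over the genome. With TWIST2 in at least 1 Ty1 library the count was 13 (52%), against 66.0%. By distance, 6 of the 25 had the centre of a TWIST2 region in both Ty1 libraries within 100 bp and 11 within 1000 bp, and counting either library these were 9 and 18. Regions of 1 library set are not independent replicates, so these shares are descriptions without a test.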

How the data were processed

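Peak lists of 14 ChIP-seq libraries of RD cells were analysed, and 10 input samples without a list were not used here. Per the submitters' processing notes, the tools were HOMER 4.4, bedtools 2.29.2, Bowtie2 2.3.4.3 and SAMtools 0.1.19, and the build was hg19 (GRCh37). Only peak positions are given in the deposited lists of H3K27ac, MYOD and Ty1, with 1 fixed width in each MYOD or Ty1 list. Per the file headers, SMARCA4 peaks were called by HOMER for each library against an input at a false discovery rate of 0.001 and at least 4-fold over input and over the surrounding 10000 bp. For each SMARCA4 peak the authors deposited a normalized tag signal, a peak score and a fold ratio over input. The score gave the rank of a peak in its own list, and the others were not used.

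Groups came from the labels. Peaks of an antibody were merged over the genome where they overlapped by 1 bp, and classed by the libraries that had them. Width was the summed length of a library's peaks in a region. The difference of means over libraries was tested by exact two-sided permutation, whose smallest p is 0.333 with 2 against 2. Python 3.11.15, numpy 2.4.6, scipy 1.17.1 and matplotlib 3.10.9 were used. The classes were tested on simulated data of 20000 regions, of which 100% were classed as made. Peak number limits precision, and depth is known for SMARCA4 alone.

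The windows, gene list and tests were chosen with earlier results of these data known. Regions named were all KD-only and control-only regions, the widest shared H3K27ac region of each window, H3K27ac regions of at least 10000 bp, and sites where MYOD, TWIST2 and H3K27ac met in all their libraries. Other regions named, the flanks, the split and fused regions and the width classes were chosen after their values were seen, as was counting TWIST2 in either Ty1 library. No hg19 annotation was used, so other thin filament genes and distances to transcription starts were not analysed here.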

Additional observations from a re-analysis of the deposited data

How the results depend on the processing

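The upper part of 0.5 of each list was taken by width for H3K27ac and by peak score for SMARCA4. For MYOD and Ty1 it was taken by list position, whose order is not explained, so it need not hold the stronger peaks. With this upper part the KD minus control difference in H3K27ac peak number turned to 1, against -5.5 with the whole lists. That setting gave 1 H3K27ac region called in KD alone, 7 narrower regions, 2 MYOD regions called in KD alone and 3 in control alone, 3 control-only SMARCA4 regions and 15 TWIST2 regions. It also gave 3 control-only H3K27ac regions, of which 1 was among the 4 of the whole lists. The cause was not tested. Single windows also turned, to 1 for MYOD peak number at TNNI2/TNNT3 and 0.5 for H3K27ac peak number at TNNC2. With lists of equal length 2 MYOD regions were control-only, and with peaks up to 500 bp apart merged 3 were. H3K27ac covered bases kept their direction under each alternative run, with differences of -16847 to -15220 bp when 1 library was left out.

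Leaving out each library in turn gave 4 to 7 control-only H3K27ac regions (7 without the second control library), 4 to 10 KD-only MYOD regions (10 without the second KD library) and 4 to 11 control-only MYOD regions, against 1 with all libraries. It gave 0 to 6 KD-only SMARCA4 regions, with 5 and 6 when the first or the second KD library was left out. Control-only SMARCA4 regions then numbered 6 to 16, with 16 without the first and 9 without the second control library. These classes need a peak in both libraries of a group, so with 1 library left out they admit more regions.

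The replicate numbers did not pair the libraries, since same-numbered libraries had correlations of deviations of -0.001 for H3K27ac width and of -0.031 to 0.005 for peak presence. With the replicate block the differences were the same, -5.5 peaks and -16033.5 covered bp for H3K27ac, -5 peaks for MYOD and -8 peaks for SMARCA4, and the smallest p that the block allows is 0.5.

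With 2 libraries a group no comparison can pass a threshold of 0.05. Peak presence depends on depth, which is unknown for H3K27ac, MYOD and Ty1, so a peak that was not called does not show that the mark or factor was absent.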
